A study of Oryza sativa with 3 samples.

Results

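The regions described here are the binding peaks of the rice transcription factor OsWRKY11 that were well covered in 1 replicate and had no counterpart in the peak list of the other. Coverage of the other library outside its listed peaks was not examined. A peak qualified when its pileup, the number of sequenced fragments stacked at its summit, lay from 15 to 39 and when it shared not even 1 bp with a peak of the other replicate's list. These peaks are called one-list peaks below. There were 1298 of them among the 37427 peaks of the series, 545 in replicate 1 and 753 in replicate 2. The peaks of the same pileup range that did touch a peak of the other list numbered 529 and 487, and they are called overlapping peaks.

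The study used DNA affinity purification sequencing (DAP-seq) on naked, fragmented genomic DNA (200 to 800 bp) of the rice cultivar Nipponbare. Both OsWRKY11 reactions used the protein made in vitro and fused to the Halo tag, which anchors a protein to beads, and the 1 control reaction used green fluorescent protein with the same tag (GFP-Halo). No plant genotype, treatment or time differs between the libraries, and the labels do not say whether protein or DNA was prepared anew for the second OsWRKY11-Halo reaction. The extract protocol also mentions crosslinked shoots of plants with a Myc-tagged OsWRKY11 under a Ubi promoter, and how far that applies here is not settled by the labels. Each OsWRKY11-Halo list was called against the same GFP-Halo library.

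WRKY proteins are plant transcription factors named after a short conserved amino acid stretch in their DNA-binding domain, and the W-box, a short element of many plant promoters, is the site they are known for. Many act in defence and stress responses, and some in flowering, which in rice is called heading. In DAP-seq the DNA carries no nucleosomes and no partner proteins, so a peak reports affinity for the DNA itself together with whatever sticks to the tag or the beads. No genome sequence of the build of the lists was used here, so the peaks are given by position, without a gene, a motif or a sequence.

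In the pileup range from 15 to 39, 545 of 1074 replicate 1 peaks were one-list peaks, a share of 50.7% (95% Wilson interval 47.8% to 53.7%). In replicate 2 they were 753 of 1240, or 60.7% (58.0% to 63.4%). Over all pileups, 78.6% of replicate 1 peaks and 84.0% of replicate 2 peaks overlapped no peak of the other list. The shares in the pileup range lay below these figures. Replicate 2 peaks were looked for in the shorter list, 15980 peaks against 21447. These peaks were chosen by their pileup and overlap, and the other values come from the same peak calls, so all of the comparisons are descriptions and carry no test. The intervals cover counting error only, since the fragments carry no molecular identifiers and may be copies of each other, and neighbouring peaks are not independent.

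The share of peaks without a counterpart was lower at higher pileups in replicate 1. It was 56.4% (51.7% to 61.0%, n = 436 peaks) at a pileup of 15, 51.4% (46.5% to 56.2%, n = 399) at 16 and 17, and 43.5% (35.8% to 51.6%, n = 147) at 18 and 19. At pileups from 20 to 24 it was 32.8% (22.3% to 45.3%, n = 61), and from 25 to 39 it was 32.3% (18.6% to 49.9%, n = 31). In replicate 2 the share went from 66.4% (62.3% to 70.2%, n = 547) at 15 to 48.0% (39.5% to 56.7%, n = 127) at 18 and 19. Above that, 42 of 84 peaks (39.5% to 60.5%) from 20 to 24 and 47.2% (32.0% to 63.0%, n = 36) from 25 to 39 were one-list peaks, and the intervals of these last 3 classes overlap widely. At pileups of 40 and more, outside the range, the share was 23.9% (18.3% to 30.6%, n = 184) in replicate 1 and 37.2% (31.1% to 43.7%, n = 223) in replicate 2.

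**Figure D1:**
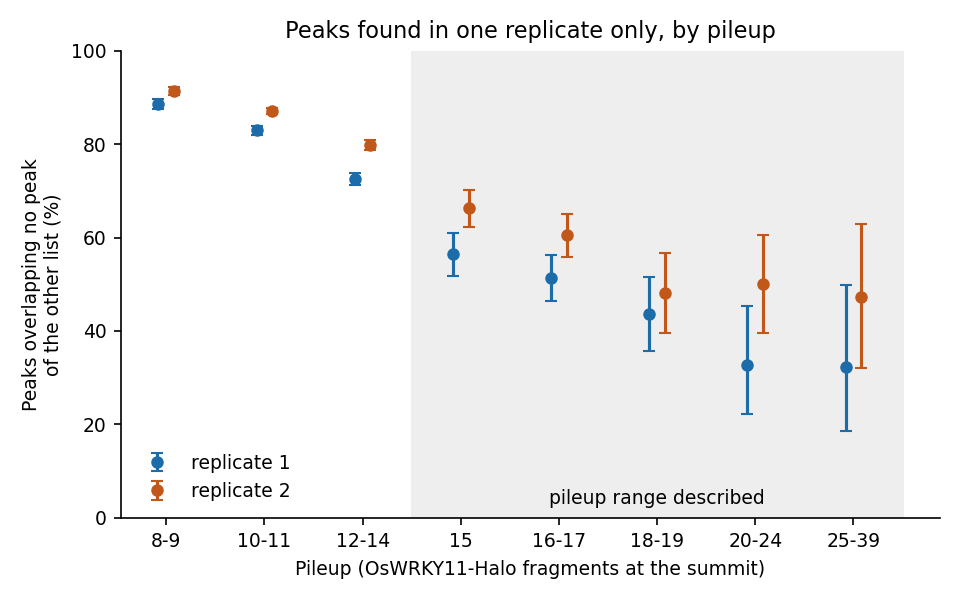
Share of peaks that overlap no peak of the other list (y axis, percent) by pileup class (x axis, fragments), with points for each replicate and bars for the 95% Wilson interval. The share went from 88.7% and 91.4% at pileups of 8 and 9 to 56.4% and 66.4% at a pileup of 15, and stood at 32.3% and 47.2% in the highest class of the shaded range.

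Most one-list peaks sat at the low end of the range. In replicate 1, 451 of the 545 (82.8%) had a pileup of 15 to 17, and in replicate 2, 633 of the 753 (84.1%). The overlapping peaks had 72.6% and 73.9% there, and the median pileup of all 4 sets was 16. At 15 fragments the exact 95% Poisson interval runs from 8.40 to 24.7. On the lowest background of either list, peaks with a pileup as low as 8 were already listed.

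Just below the pileup range, at a pileup of 14, 548 of 819 peaks (66.9%) of replicate 1 and 763 of 1054 (72.4%) of replicate 2 had no counterpart, with a median length of 161 and 165 bp. Just inside, at 15, the shares were 56.4% and 66.4% and the median length was 167.5 and 170 bp. At the upper edge the peaks were few, with 1 and 2 one-list peaks at a pileup of 39 and 2 and 1 at 40. At the overlap bound, 1 one-list peak of replicate 1 and 6 of replicate 2 lay within 10 bp of a peak of the other list, while 2 and 3 overlapping peaks shared 10 bp or less with theirs. The overlap was otherwise broad, with a median of 162 and 167 bp.

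The partners of overlapping peaks give the level of a site in the other reaction, but only where it was high enough there to be listed. The nearest-summit partners of the 529 overlapping peaks of replicate 1 had a median pileup of 13 in replicate 2, with quartiles of 11 and 16 and a range from 8 to 85. The partners of the 487 overlapping peaks of replicate 2 had the same median and quartiles in replicate 1, with a range from 8 to 44. Of these partners, 345 (65.2%) and 305 (62.6%) were themselves under a pileup of 15, and 178 and 179 lay within the range from 15 to 39. Over all peaks of the lists in which these partners were found, 93.2% (replicate 2) and 92.1% (replicate 1) were under 15, and the overlapping peaks had been selected on a pileup of at least 15, so a lower partner is what the selection favours.

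One-list peaks were shorter than overlapping peaks in both replicates. Their median length was 173 bp (quartiles 140 and 236, range 113 to 906) against 258 bp (176 and 413, range 114 to 1239) in replicate 1. In replicate 2 it was 169 bp (137 and 228, range 111 to 937) against 253 bp (185 and 408, range 111 to 1143). Weighting the overlapping peaks to the pileups of the one-list peaks left their medians at 263 and 252 bp. At pileups of 20 to 39 the difference in replicate 1 was 43 bp, with a 95% interval from -3.01 to 126 bp that includes 0, and 75 bp (22.2 to 139 bp) in replicate 2. The weighting left 4 one-list peaks of replicate 2 without a match, because no overlapping peak had their pileup. A longer peak has more bases on which another peak can fall, so length is not independent of the way the sets were formed.

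**Figure D2:**
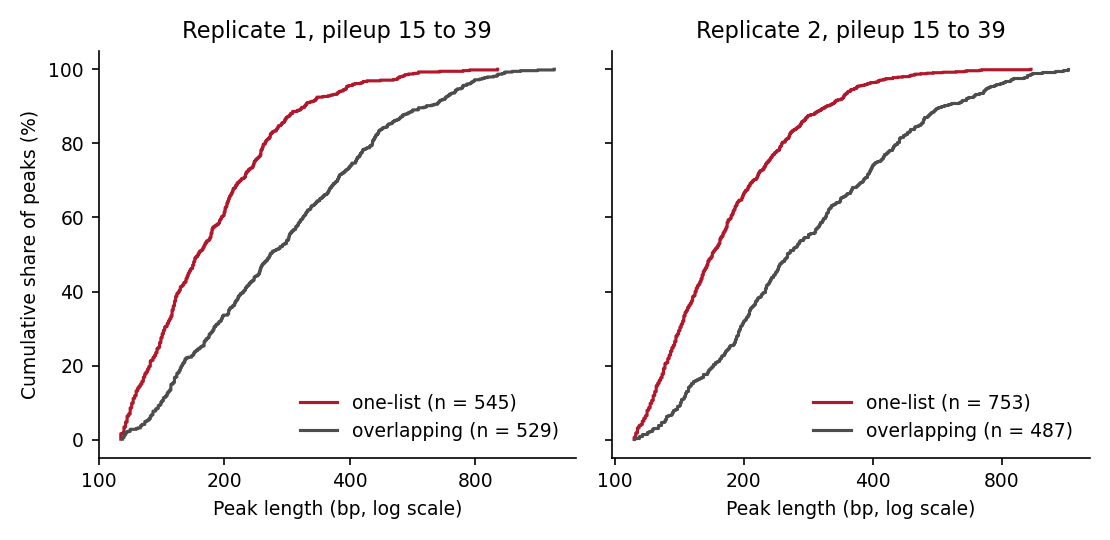
Cumulative share of peaks (y axis, percent) by peak length (x axis, bp, log scale) for one-list peaks (red) and overlapping peaks (grey) with a pileup of 15 to 39, replicate 1 left and replicate 2 right. The one-list curves lie to the left throughout, with medians of 173 and 169 bp against 258 and 253 bp.

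Read the other way, the share without a counterpart went down with length. Of the peaks under 150 bp, 69.7% (63.9% to 75.0%, n = 261) of replicate 1 and 79.4% (74.8% to 83.3%, n = 344) of replicate 2 were one-list peaks. At 300 bp and more, the shares were 21.4% (17.0% to 26.5%, n = 285) and 29.5% (24.5% to 35.0%, n = 288). Among peaks with a pileup of only 15 to 17 the same classes gave 72.7% and 23.3% in replicate 1, and 80.1% and 34.5% in replicate 2, so the difference with length was also there where pileups were nearly alike. Even so, 61 one-list peaks of replicate 1 and 85 of replicate 2 reached 300 bp.

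The median enrichment over GFP-Halo differed little between the sets over the whole pileup range, where most peaks had 15 to 17 fragments. The authors' fold enrichment had a median of 4.08 (range 2.07 to 6.14) in the one-list peaks of replicate 1 and 4.09 (2.01 to 8.19) in the overlapping peaks. The medians in replicate 2 were 3.91 (2.02 to 5.41) and 3.94 (2.07 to 8.12). The differences were 0.0182 (95% interval 0 to 0.0890) and 0.0257 (0.0118 to 0.103). The medians of the overlapping peaks are the fold of a pileup of 15 on the lowest background, a value shared by many peaks, so they say little about the spread. The lower quartile was 3.30 in one-list and 3.68 in overlapping peaks of replicate 1, and 3.29 and 3.44 in replicate 2. At pileups of 20 to 39 the median of overlapping peaks was higher by 0.472 in replicate 1 and by 0.271 in replicate 2, with 95% intervals that include 0 (-0.334 to 1.15 and -0.220 to 1.12). With the replicate 2 range set to 16 to 41, scaled by the ratio of the lowest backgrounds of the lists, a choice made after seeing the data, it was higher by 0.241 (0.0496 to 0.358). The upper end was also thinner among one-list peaks. A fold of at least 4, reached by 4.06% of all replicate 1 peaks and 1.71% of all replicate 2 peaks, was reached by 54.3% of one-list and 65.2% of overlapping peaks in replicate 1, and by 24.8% and 35.5% in replicate 2. A fold of at least 5 was found at 10 one-list (1.83%) and 34 overlapping peaks (6.43%) of replicate 1 and at 9 (1.20%) and 15 (3.08%) of replicate 2. At that fold the share over all peaks was not computed. The pileup bound raises the shares at both folds by itself, as the fold is the pileup over the background.

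Most one-list peaks passed a q-value bound in the authors' own scoring. A q-value of at most 0.05, which 29.9% and 28.2% of all peaks in the lists reached, was held by 497 of the 545 one-list peaks of replicate 1 (91.2%) and by 702 of the 753 of replicate 2 (93.2%). The overlapping peaks held it in 96.6% and 94.3% of cases. The pileup bound raises all of these shares above those of the lists by itself, as the q-value comes from the same peak calls. The median −log10 q was 3.17 in both sets of replicate 1 and 2.95 in both sets of replicate 2. Each of these medians is a value shared by many peaks, so their equality does not show that the sets scored alike. The lower quartile was 2.38 in one-list and 2.88 in overlapping peaks of replicate 1, and 2.07 and 2.54 in replicate 2. The upper quartiles were 3.82 and 3.96 in replicate 1, and 3.49 and 3.59 in replicate 2.

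The share of peaks on a raised GFP-Halo background was higher among one-list than among overlapping peaks. Over all peaks of a list it was lower than in either set. The local background was recovered from the deposited pileup and fold, and its lowest level (2.91 fragments for replicate 1, 3.06 for replicate 2) is shared by many peaks and may be a lower bound of the calling. In replicate 1, 219 of 545 one-list peaks (40.2%, 36.2% to 44.4%) stood on that lowest level, against 264 of 529 overlapping peaks (49.9%, 45.7% to 54.2%). Replicate 2 had 277 of 753 (36.8%, 33.4% to 40.3%) against 207 of 487 (42.5%, 38.2% to 46.9%), intervals that overlap. The difference in replicate 2, 5.72 percentage points, had a 95% interval from 0.161 to 11.3 that reached below 0 in 4 of its 6 alternatives.

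At a pileup of exactly 15, where a raised background is the same as a lower fold, 65.4% (58.8% to 71.5%, n = 211) of the replicate 1 peaks on a raised background had no counterpart, against 48.0% (41.6% to 54.5%, n = 225) on the lowest. In replicate 2 the shares were 69.8% (64.4% to 74.7%, n = 298) and 62.2% (56.1% to 68.0%, n = 249), again with overlapping intervals. The GFP-Halo library is common to the lists, and its part in these differences was not tested.

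**Figure D3:**
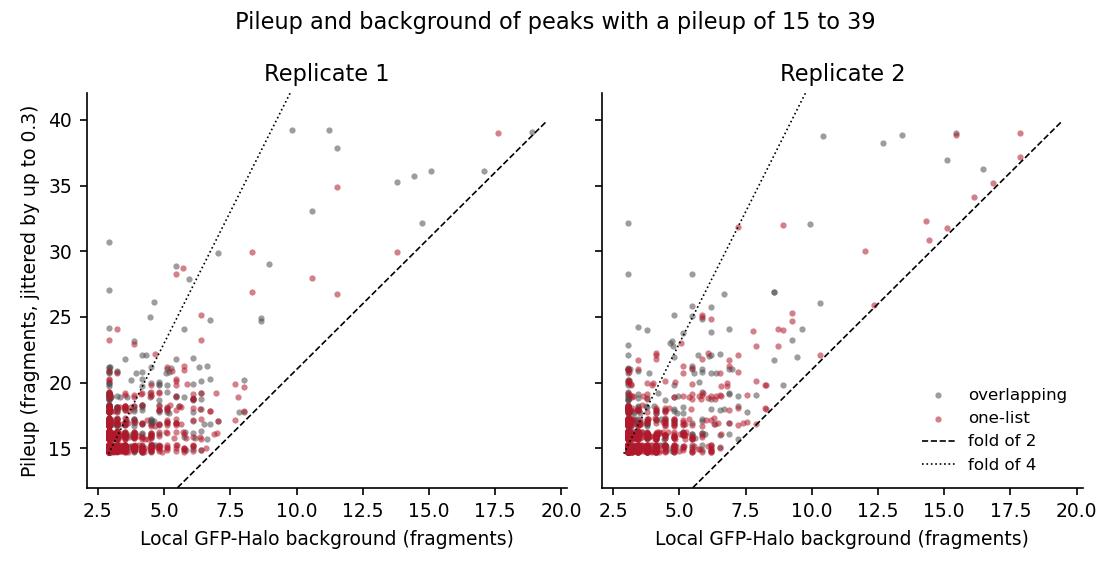
Pileup (y axis, fragments, jittered) against the local GFP-Halo background (x axis, fragments) for one-list peaks (red) and overlapping peaks (grey) with a pileup of 15 to 39; the dashed and dotted lines mark a fold of 2 and of 4. All of the one-list peaks with a pileup of 25 or more, 10 in replicate 1 and 17 in replicate 2, stand on a raised background.

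The tallest one-list peaks were mostly not the most enriched, and the same was seen among overlapping peaks. None of the 10 with a pileup of 25 or more in replicate 1 and none of the 17 in replicate 2 stood on the lowest background, where 2 of 21 and 2 of 19 overlapping peaks of that height did. A fold of at least 4 was reached by 2 of the 10 and 1 of the 17, and by 6 of the 21 and 6 of the 19 overlapping peaks. In replicate 1 the highest pileup, 39 (exact 95% Poisson interval 27.7 to 53.3), belonged to a peak of 334 bp on chromosome 11 at 16542344 to 16542677 with a fold of 2.15. Its nearest peak in replicate 2 ended 997 bp away and had a pileup of 54. The second, with 35 fragments (24.4 to 48.7) and a fold of 2.87, lay on chromosome 4 at 13995285 to 13995406, 18254 bp from the nearest replicate 2 peak.

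The other 3 of the 5 tallest in replicate 1 had 30, 30 and 29 fragments. They lay on chromosome 12 at 8500324 to 8500445 (fold 3.32), on chromosome 4 at 27625293 to 27625411 (fold 2.10) and on chromosome 5 at 27165877 to 27166096 (fold 4.47). The last was the only one of the 5 with a fold above 4, and its background of 5.71 fragments was the lowest of the 5. In replicate 2 the 5 tallest one-list peaks all had folds between 2.02 and 2.43 on backgrounds between 15.4 and 17.9 fragments. They were found on chromosome 8 at 12271998 to 12272211 (39 fragments), chromosome 2 at 25633200 to 25633321 (39), chromosome 5 at 12954980 to 12955212 (37), chromosome 4 at 16289181 to 16289301 (35) and chromosome 9 at 2792801 to 2793150 (34).

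The most enriched one-list peaks had fewer fragments, on a background at or close to the lowest. The highest fold of replicate 1, 6.14, was that of a 207 bp peak on chromosome 11 at 7338988 to 7339194, with 23 fragments (14.6 to 34.5) on the lowest background. The nearest peak of replicate 2 was 1813 bp away, with 11 fragments and a fold of 2.95. A peak on chromosome 8 at 16261691 to 16261849 followed with a fold of 5.95 and 24 fragments, 2252 bp from a replicate 2 peak of 18 fragments. Folds of 5.63, 5.34 and 5.33 were found on chromosome 1 at 40083764 to 40083949, on chromosome 12 at 14101453 to 14101598, and also at 3980420 to 3980784 of chromosome 6, with 21, 20 and 20 fragments. Of these, the site on chromosome 12 had a replicate 2 peak of 510 bp only 329 bp away, and the site on chromosome 1 had none within 22635 bp.

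In replicate 2 the highest fold of a one-list peak was 5.41, reached by a pair of peaks with 21 fragments (13.0 to 32.1) each on the lowest background. They lay on chromosome 1 at 39518352 to 39518539, 659 bp from a replicate 1 peak of 490 bp, and on chromosome 11 at 22189116 to 22189320, 2991 bp from the nearest. Next came a fold of 5.38 on chromosome 2 at 27431589 to 27431757 and of 5.19 on chromosome 3 at 11458403 to 11458541, with 21 and 22 fragments. A fold of 5.17 was shared by a chromosome 5 peak at 29175086 to 29175330 and a chromosome 12 peak at 19402891 to 19403072. The Poisson intervals of all of these pileups overlap each other, so their order by fold is within counting error.

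The nearest peak of the other list lay a few kilobases from a typical one-list peak. Distance was counted from edge to edge, and 1 bp means adjoining peaks. Its median was 4149 bp in replicate 1 (quartiles 1064 and 10960, range 1 to 77108) and 5064 bp in replicate 2 (1429 and 12861, range 4 to 104214). A peak of the other list lay within 100 bp of 24 one-list peaks of replicate 1 (4.40%) and 27 of replicate 2 (3.59%). Within 500 bp the counts were 95 (17.4%) and 98 (13.0%), and within 1 kb 133 (24.4%) and 160 (21.2%). They reached 396 (72.7%) and 514 (68.3%) within 10 kb, and 5 and 15 one-list peaks were more than 50 kb from any peak of the other list.

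For overlapping peaks, the nearest peak of the other list that they did not touch was closer, at a median of 2459 bp in replicate 1 and 3096 bp in replicate 2. It lay within 1 kb for 29.7% and 28.7% of them. The overlapping peaks were also closer to peaks of their own list, at a median of 3506 bp against 5501 bp for one-list peaks in replicate 1, and 2113 bp against 3999 bp in replicate 2. One-list peaks thus stood somewhat farther from other peaks of either list. The lists differ in their number of peaks, so distances measured in the longer list are shorter for that reason alone and are compared only within a replicate.

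**Figure D4:**
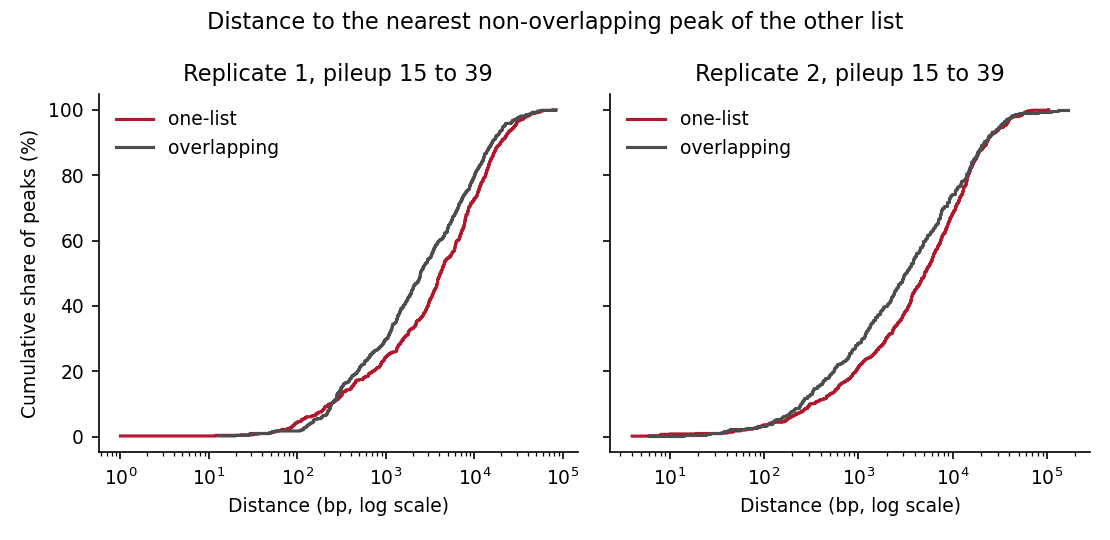
Cumulative share of peaks (y axis, percent) by distance to the nearest peak of the other list that the peak does not overlap (x axis, bp, log scale), for one-list peaks (red) and overlapping peaks (grey) of replicate 1 (left) and replicate 2 (right). Medians were 4149 against 2459 bp and 5064 against 3096 bp, while within 100 bp the shares were 4.40% against 1.70% and 3.59% against 3.29%.

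Where a one-list peak had a peak of the other list within 500 bp, that neighbour had a median pileup of 12 for either replicate. It reached 15 in 15 of 95 cases for replicate 1 (15.8%, 9.81% to 24.4%) and in 21 of 98 for replicate 2 (21.4%, 14.5% to 30.5%). Over all peaks, 6.82% in replicate 2 and 7.87% in replicate 1 reached a pileup of 15. The summits lay a median of 419 bp (range 162 to 1123) and 431.5 bp (61 to 803) apart. The 500 bp bound, the lack of overlap and the peak lengths limit these distances by themselves. The 3 nearest cases of replicate 1 were a 521 bp peak on chromosome 7 at 3877113 to 3877633 that adjoined a replicate 2 peak of 14 fragments, and peaks of chromosome 5 at 1336484 to 1336637 and chromosome 2 at 21945541 to 21945690 that were 12 and 23 bp from peaks of 10 fragments. Their summits were 315, 188 and 162 bp from those of the neighbours.

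The nearest cases of replicate 2 were on chromosome 1 at 23665441 to 23665722, at 4 bp, and on chromosome 7 at 27429252 to 27429663, at 6 bp. A further 3 lay at 8 bp, on chromosome 1 at 1499605 to 1499854 and 12115635 to 12116058 and on chromosome 11 at 2944651 to 2944956. The peak at 4 bp had its summit 81 bp from that of the neighbouring replicate 1 peak, and the summits of the others were 286 to 560 bp apart. These pairs missed the overlap by a few bases.

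The most isolated one-list peak of replicate 1 lay on chromosome 2 at 13752982 to 13753256, 77108 bp from any replicate 2 peak, with 20 fragments and a fold of 2.42. The next were on chromosome 2 at 33800169 to 33800322 (59285 bp) and on chromosome 9 at 19168958 to 19169120 (56042 bp), both on the lowest background with folds of 4.09 and 4.35. In replicate 2 the most isolated peak, on chromosome 6 at 44549 to 44918, had 15 fragments, a fold of 2.68 and no replicate 1 peak within 104214 bp. It was followed by the peak of 34 fragments on chromosome 9 named above, at 68913 bp, and by a peak on chromosome 12 at 6352666 to 6352816, at 63556 bp, with 20 fragments and a fold of 5.13. Isolated one-list peaks thus included both weakly and strongly enriched ones.

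One-list peaks were also set against the one-list peaks of the other replicate. The nearest one-list peak of the other list was a median of 159856 bp away for replicate 1 and 223512 bp for replicate 2. Within 1 kb lay 18 pairs (18 of 545 and 18 of 753 peaks). Within their own list, 12 of 545 and 13 of 753 had another one-list peak within 1 kb, and the median distance was 194139 and 152408 bp. The 11 pairs within 500 bp, looked at after the values were seen, were spread over 6 chromosomes. The closest was on chromosome 11, where replicate 1 had a peak at 16489545 to 16489672 (15 fragments, fold 2.36) and replicate 2 one at 16489212 to 16489453 (15 fragments, fold 2.23), 92 bp apart. A pair on chromosome 10, 96 bp apart, had 15 and 20 fragments with folds of 2.11 and 2.69. A pair on chromosome 7, at 19642035 to 19642285 and 19641739 to 19641925, had 15 fragments in both and folds of 4.09 and 3.94.

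One-list peaks were found on all 12 chromosomes. Measured up to the last peak of each chromosome, they had a density in replicate 1 between 1.32 per Mb, on chromosome 3, and 1.70 per Mb, on chromosome 9. For replicate 2 the extremes were 1.60 per Mb on chromosome 6 and 2.45 per Mb on chromosome 11. The share of well-covered peaks without a counterpart was lowest on chromosome 10 in both replicates, at 43.2% (32.6% to 54.6%, 32 of 74 peaks) and 51.8% (41.3% to 62.1%, 44 of 85). It was highest on chromosome 9 in replicate 1, at 60.9% (48.7% to 71.9%, 39 of 64), and on chromosome 5 in replicate 2, at 75.9% (65.9% to 83.6%, 66 of 87). Chromosome 5 in replicate 2 was the only chromosome in either replicate whose interval did not include the share over all chromosomes, and in replicate 1 it stood at 56.0% (45.3% to 66.1%). The intervals are not adjusted for the 12 chromosomes looked at in each replicate.

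**Figure D5:**
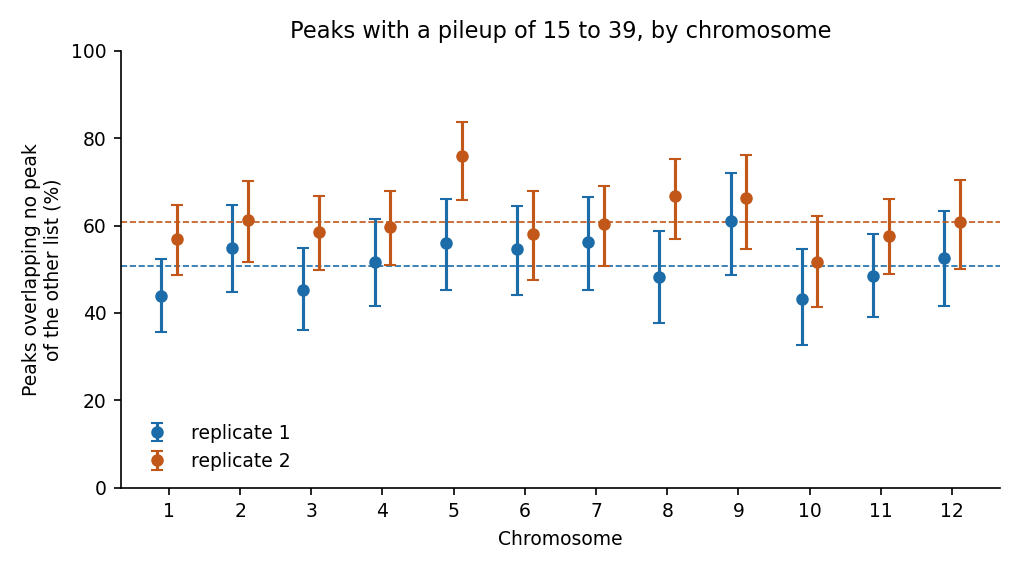
Share of peaks with a pileup of 15 to 39 that overlap no peak of the other list (y axis, percent) on each chromosome (x axis), with 95% Wilson intervals; the dashed lines mark the shares over all chromosomes, 50.7% in replicate 1 and 60.7% in replicate 2. Replicate 2 lies above replicate 1 on every chromosome. Chromosome 5 in replicate 2, at 75.9%, is the only point whose interval leaves out its dashed line, and the intervals are not adjusted for the 12 chromosomes.

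Along the chromosomes the one-list peaks were found in similar numbers from end to end. When each chromosome was split into 5 equal parts, the parts held between 100 and 116 one-list peaks in replicate 1 and between 142 and 157 in replicate 2. As a share of the well-covered peaks this was 47.1% to 56.6% in replicate 1. In replicate 2 it was 61.5% to 64.7% in 4 of the parts and 51.4% (45.6% to 57.3%, n = 276) in the fourth part from the start. In the first and last Mb of the chromosomes the share was 52.1% (40.8% to 63.1%, 38 of 73) in replicate 1 and 66.0% (55.9% to 74.7%, 62 of 94) in replicate 2, with intervals that include the shares of the inner parts, 50.6% and 60.3%.

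Of the 368 whole 1 Mb windows, 273 held a one-list peak of replicate 1, 307 one of replicate 2 and 229 one of each. The median was 1 and 2 per window, and the variance was 1.30 and 1.23 times the mean, against 1.33 and 1.46 for overlapping peaks. The window from 15000001 to 16000000 on chromosome 4 held the most, with 8 one-list peaks of replicate 1 between 15358021 and 15788599 and 9 of replicate 2 between 15009426 and 15765716. All 17 stood on a raised background, as did all 4 overlapping peaks of replicate 1 and all 6 of replicate 2 in that window. The replicate 1 peaks had folds between 2.23 and 4.04, and the replicate 2 peaks between 2.06 and 3.87.

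The window from 28000001 to 29000000 on chromosome 11 held 8 one-list peaks of either replicate, between 28304101 and 28970376 in replicate 1 and between 28275751 and 28732163 in replicate 2. It also held 11 overlapping peaks of either replicate. Of the 16 one-list peaks, 15 stood on a raised background. So did 10 of the 11 overlapping peaks of replicate 1 and all 11 of replicate 2. Another window with 8 one-list peaks of replicate 1, on chromosome 1 from 11000001 to 12000000, had fewer of them on a raised background. There 3 of the 8, between 11108763 and 11774072, were on a raised background, and their median fold was 4.09. Replicate 2 had 4 one-list peaks in that window, 3 of them on a raised background, and all 3 overlapping peaks of the replicates there were on one as well. Backgrounds of the overlapping peaks were 2.98 and 3.20 fragments in replicate 1 and 3.78 in replicate 2, so some were only just above the lowest level.

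In a stretch of 84666 bp within the chromosome 11 window, from 28534290 to 28618955, singled out after its values were seen, one-list peaks lay among overlapping ones. Replicate 1 had 6 one-list and 9 overlapping peaks of the pileup range there, and replicate 2 had 5 and 10. The tallest one-list peak of replicate 1 in it, at 28544328 to 28544530, had 23 fragments, a fold of 3.24 and a replicate 2 peak 2962 bp away. That of replicate 2, at 28594725 to 28594860, had 22 fragments, a fold of 2.80 and a replicate 1 peak 2245 bp away. All 30 peaks stood on a raised background, with a median of 6.10 fragments under the one-list peaks of replicate 1 and 6.29 under those of replicate 2. The 30 count overlapping sites in each list, and both backgrounds come from the same GFP-Halo library, so they are not separate observations. Folds in the stretch stayed between 2.31 and 3.65.

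A second stretch, on chromosome 5 from 27128464 to 27166096 and also singled out after its values were seen, held both of the one-list peaks of replicate 1 that had 25 or more fragments and a fold of at least 4. They lay at 27143252 to 27143454, with 28 fragments and a fold of 4.50, and at 27165877 to 27166096, with 29 fragments and a fold of 4.47. The nearest replicate 2 peaks were 6117 and 7798 bp away. Between them, replicate 1 had a peak at 27152908 to 27153076 (16 fragments, fold 2.53) and replicate 2 one at 27152572 to 27152717 (19 fragments, fold 2.93), 191 bp apart. The stretch also held peaks found in both lists, among them one of 21 fragments in replicate 1 and 14 in replicate 2 that began at 27131052 and 27131100.

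One-list and overlapping peaks lay near the stretches of very high coverage in similar shares, and the share over all peaks was not computed. A peak with a pileup of at least 40 in either list was within 100 kb of 24 one-list peaks of replicate 1 (4.40%) and 38 of replicate 2 (5.05%), and of 26 (4.91%) and 27 (5.54%) overlapping peaks.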

How the data were processed

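The tools named, per the submitters' processing notes, are MACS2 2.2.7.1, BWA 0.7.12-r1039 and Trimmomatic 0.36. Their options, the genome build and the read totals are not stated in the sources used here. Per the file headers, each deposited list gives a peak's position, its pileup (a coverage signal in whole fragments), its fold enrichment (a ratio to the local background) and the −log10 of its p-value and of its q-value. Each replicate was called separately against 1 GFP-Halo library. These scores are the authors' own and served to describe, rank and filter peaks within a list. To recover the background, 1 was added to the pileup, the sum divided by the fold and 1 taken off, and backgrounds within 0.001 of the lowest of a list were counted as lowest.

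Members, measures and settings were chosen with earlier results of these data known. Regions named are, per list, the 5 one-list peaks with the highest pileup, the 5 with the highest fold, the 3 nearest to and the 3 farthest from a peak of the other list, ties included except for pileup, and those of the fullest 1 Mb window by first and last position; others are said to be chosen after their values were seen. Medians of overlapping peaks were also weighted to the pileups of one-list peaks. The overlap and distance steps were tested on simulated lists. Software was scipy 1.17.1, pandas 2.3.3, numpy 2.4.6 and matplotlib 3.10.9 under Python 3.11.15.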

Additional observations from a re-analysis of the deposited data

How the results depend on the processing

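Of 55 values recomputed under 6 alternatives for 10 results, 35 stayed within the interval of the reported value, 20 moved and 0 changed sign, a count that could concern only the 33 values of the 6 results that are differences. The share of one-list peaks moved to 54.9% and 64.8% (replicates 1 and 2) when a counterpart had to cover 50% of the shorter peak, to 41.9% and 52.8% when a peak within 500 bp counted as one, to 32.6% and 49.2% at pileups of 20 to 39, and to 68.4% and 73.9% with both lists held to a q-value of at most 0.05, which leaves fewer peaks to overlap. The median distance moved to 6120 and 6501 bp within the 500 bp rule, to 16268 and 20394 bp with the q-value bound, and in replicate 2 to 6044 bp at pileups of 20 to 39. The excess in median length of overlapping peaks moved to 43 bp (-3.01 to 126) in replicate 1 at pileups of 20 to 39 and to 119 bp in replicate 2 with the q-value bound. Their excess in median fold moved to 0.472 and 0.271 at pileups of 20 to 39 and to 0 in replicate 2 with the q-value bound. An alternative chosen after seeing the data scaled the replicate 2 range to 16 to 41 by the ratio of the lowest backgrounds, 1.05; the share was then 56.3% and the excess in fold 0.241. The difference in peaks on the lowest background stayed above 0, but in replicate 2 its interval reached below 0 with 50% overlap (-1.14), at pileups of 20 to 39 (-0.865), without 100 kb around pileups of at least 40 (-0.516) and with the scaled range (-1.11), and in replicate 1 at pileups of 20 to 39 (-3.97). By definition the 50% rule can only raise the share, and the 500 bp rule can only lower it and lengthen the median distance. The causes of the other shifts were not tested. With either replicate left out, no overlap exists. No paired analysis was possible because the control group has a single library, common to both lists. Most one-list peaks had 15 to 17 fragments, which limits the precision of each.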
